A study of Mus musculus with 8 samples.

Results

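Mitochondrial complex I (NADH:ubiquinone oxidoreductase) was followed through the mRNA of its nuclear subunit genes in mouse hearts after ischemia-reperfusion. The members were all genes whose symbol begins with Ndufa, Ndufab, Ndufb, Ndufc, Ndufs or Ndufv followed by a digit, which leaves out the assembly factors with symbols beginning Ndufaf. There were 40 such genes among the 16547 with values in every library. Complex I takes electrons from NADH, passes them along a chain of iron-sulfur clusters to ubiquinone and couples this to proton pumping across the inner mitochondrial membrane. It is built from an NADH-binding N module, a ubiquinone-binding Q module and a membrane arm with a proximal and a distal part. The heart depends on it for most of its ATP, and on reperfusion it is a known source of superoxide. Its membrane core is encoded by mitochondrial DNA, which is not analysed here.

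All 4 groups had ischemia-reperfusion of the heart and 2 libraries each. PBS is the vehicle group. The groups iFTn-M4, iFTn-R4 and iFTn-MR4 received the engineered protein nanocages of those names, made as nanozymes to remove superoxide inside cells. Treatment was 2 doses on alternate days, with 2.5 mg/kg of nanocage protein, and RNA came from injured heart tissue after 3 days. Strain, age, sex and any uninjured heart are not given in the labels used here. Nothing in the labels says that the paired libraries of a group came from different animals. The p-values therefore reflect the spread between libraries, which may be technical.

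Libraries held 13618128 to 15729311 expected counts, of which the 40 members took 0.725% to 1.025%. Levels are CPM, counts scaled to a common library total with TMM factors, and per-length levels are the authors' TPM. Tests are edgeR quasi-likelihood contrasts over 13953 genes, called at a Benjamini-Hochberg adjusted p under 0.05. The PBS values come in a separate table, and group and table cannot be told apart in a comparison with PBS. All 12 cardiomyocyte markers had counts in every library. Within iFTn-R4, replicate 1 was lower in complex I than replicate 2, with 6914 against 8314 summed CPM over the members. The low-count filter kept 39 members. Ndufb4b, a copy of Ndufb4, was left out at 0 to 0.397 CPM, and Ndufa4l2 was the lowest member kept at 22.4 to 32.5 CPM. Reads were split between near-identical copies for Ndufb4, Ndufb4b and Ndufb4c, whose values are uncertain.

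Promoters of 3 members are shown as examples of different patterns among the members. Ndufs6 was higher in iFTn-MR4 than in PBS and in iFTn-R4, Ndufs7 had the largest difference between iFTn-MR4 and iFTn-R4, and Ndufc2 was lower than PBS in all nanocage groups before correction for transcript length. Each runs 5′ to 3′ from 250 bases before the annotated transcription start to 50 bases from it, from RefSeq on GRCm38.p6, with motif matches in capitals. They lie at chr13:73328433-73328732 on the minus strand, chr10:80249199-80249498 on the plus strand and chr7:97399753-97400052 on the plus strand. The Ndufs7 window lies inside that gene's span, chr10:80249105-80256794, so the start used for it is not the gene's first base.
Ndufs6: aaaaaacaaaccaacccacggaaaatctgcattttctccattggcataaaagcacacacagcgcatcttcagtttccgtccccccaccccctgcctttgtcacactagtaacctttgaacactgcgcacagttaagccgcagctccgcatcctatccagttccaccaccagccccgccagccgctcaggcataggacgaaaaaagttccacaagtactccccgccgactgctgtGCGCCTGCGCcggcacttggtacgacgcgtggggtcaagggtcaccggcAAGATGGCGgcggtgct
Ndufs7: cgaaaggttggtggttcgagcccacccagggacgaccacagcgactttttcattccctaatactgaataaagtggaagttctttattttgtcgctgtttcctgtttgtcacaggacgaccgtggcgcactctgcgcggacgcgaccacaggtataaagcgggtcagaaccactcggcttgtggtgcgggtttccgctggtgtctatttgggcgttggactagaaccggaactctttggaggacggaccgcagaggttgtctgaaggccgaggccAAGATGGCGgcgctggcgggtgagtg
Ndufc2: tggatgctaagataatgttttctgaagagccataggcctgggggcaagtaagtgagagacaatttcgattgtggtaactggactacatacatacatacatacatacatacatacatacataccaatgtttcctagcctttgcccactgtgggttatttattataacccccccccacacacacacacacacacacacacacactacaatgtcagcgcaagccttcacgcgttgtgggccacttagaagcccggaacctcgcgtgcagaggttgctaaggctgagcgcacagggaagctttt
The capitals mark the motif of the nuclear respiratory factor NRF1, the upstream match in Ndufs6, and AAGATGGCG, a motif of YY1. With the start base counted as 0, Ndufs6 held the NRF1 motif at -16 to -7 and the YY1 motif at 33 to 41. Ndufs7 held the YY1 motif at 24 to 32, and Ndufc2 held neither. Ndufa11, also highest in PBS before length correction, held the NRF1 motif, and Ndufv1, highest in iFTn-MR4, held neither. Whether motifs go with levels was not tested. Both strands were searched, and no match overlapped another. Of the 34 members with an entry, 7 (20.6%) held the NRF1 motif in a promoter, against 5.19% of all 27025 genes in the table. The YY1 letters, which also contain a start codon, were in 5 members (14.7%) against 1.64% of genes. CCGGAAGT, a motif of GABP, was in 1 member (2.94%) against 4.31% of genes. TNAAGGTCA, a motif of the oestrogen-related receptors, was in 1 member (2.94%) against 1.43%. These are matches of letters in a short window and say nothing of binding.

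Complex I mRNA was highest in iFTn-MR4, and whether iFTn-R4 or PBS was lowest depended on the length correction for transcript length. In CPM, without that correction, the members summed to 10306 ± 347 CPM in iFTn-MR4, 9201 ± 177 in iFTn-M4, 8753 ± 617 in PBS and 7614 ± 990 in iFTn-R4 (SD, n = 2 in each). By library, the sums were 10551 and 10060 in iFTn-MR4, 9326 and 9076 in iFTn-M4, 8317 and 9189 in PBS, and 6914 and 8314 in iFTn-R4. Both iFTn-MR4 libraries stood above all others, iFTn-M4 overlapped PBS, and the upper iFTn-R4 library lay just under the lower PBS library. With the correction, the tested members' median log2 deviation from their mean over libraries was -0.26 and -0.17 in PBS and -0.25 and -0.05 in iFTn-R4, against -0.08 and 0.07 and -0.34 and -0.10 without it. Corrected, PBS and iFTn-R4 overlapped, and iFTn-M4 lay above both at 0.08 and 0.10. The highest was still iFTn-MR4 at 0.31 and 0.26. In such bulk tissue, fewer cells of a type and less RNA per cell cannot be told apart. Per length, the median tested member had 576 to 778 TPM across libraries. Ndufa4, now counted as a subunit of cytochrome c oxidase despite its name, was the highest in each library at 2876 to 4200 TPM. Ndufa4l2, its hypoxia-induced relative, was the lowest at 54.1 to 73.6 TPM.

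**Figure D1:**
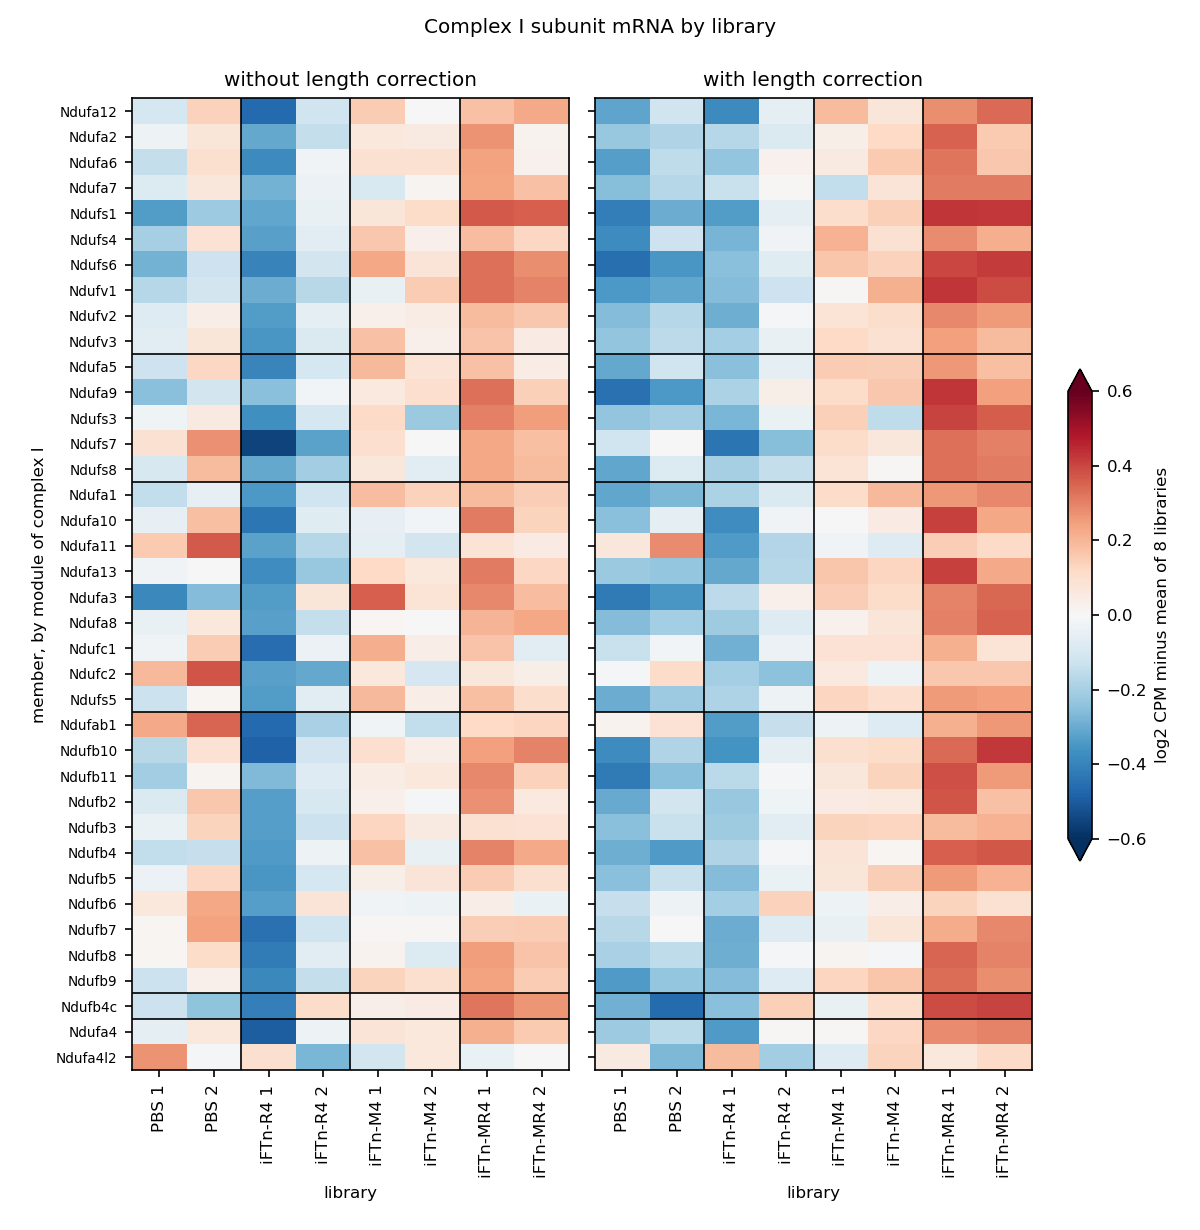
Level of tested members (rows, by module) in each of the 8 libraries (columns), as log2 CPM minus the member's mean over the libraries, without (left) and with (right) correction for transcript length. Nearly every row is red in iFTn-MR4 and blue in iFTn-R4 replicate 1, while the PBS columns turn from mixed to blue with the correction.

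Transcript length bears on every comparison with PBS. Complex I subunits are small proteins, and the tested members had a median effective transcript length of 376 bases against 2648 for all tested genes. Of the 39, 37 lay among the shortest 20% of genes, below 1383 bases. Over all tested genes, longer genes were higher in the nanocage libraries than in PBS, with a Spearman correlation of length and log2 fold change of 0.35 in iFTn-MR4, 0.39 in iFTn-M4 and 0.50 in iFTn-R4. The correlation was 0.01 to 0.07 between nanocage groups. These shortest genes had a median log2 fold change of -0.26, -0.23 and -0.26 against PBS in those groups, in the same order. A smooth trend on length entered as an offset brought these medians to 0.06, 0.04 and 0.02. Whether the trend comes from library preparation, table or tissue cannot be told apart here, so each comparison with PBS is given without and with the offset.

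**Figure D2:**
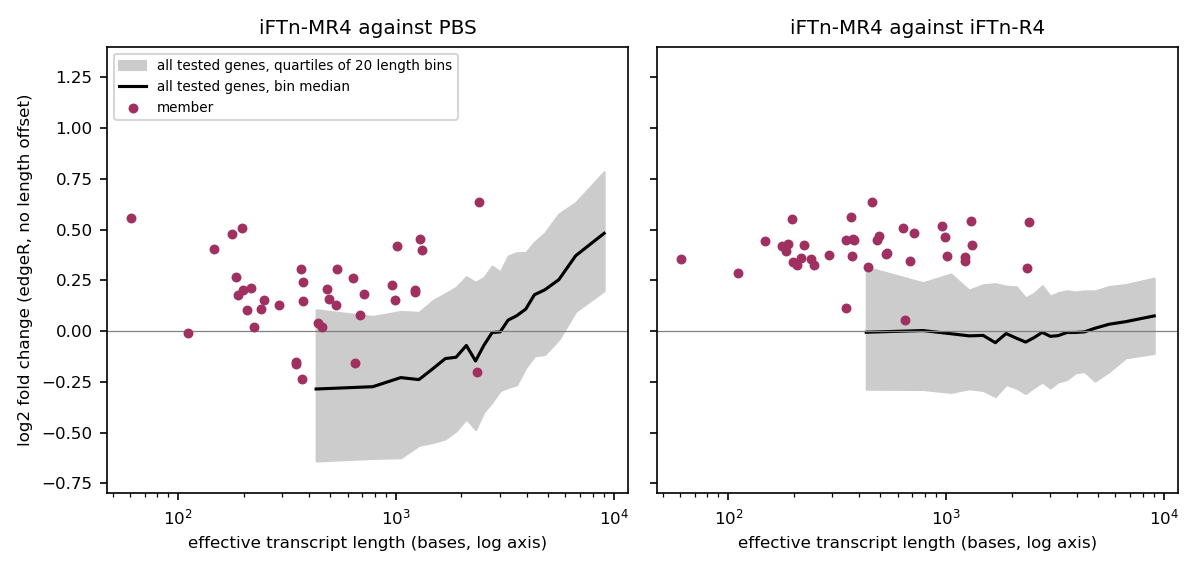
Log2 fold change without the length offset against effective transcript length (log axis) for the 39 members (points) and all tested genes (line, median of 20 length bins, and band, quartiles). Against PBS the gene median climbs with length and most members lie above it at the short end, and against iFTn-R4 it stays near 0 with all members above 0.

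The comparison of iFTn-MR4 with iFTn-R4, both from the same table and with little length trend, gave the most calls of the 6 comparisons in both fits. Of the 39 members, 33 rose and 0 fell, against 12.6% and 14.6% of all tested genes that rose and fell. The members' median log2 fold change was 0.40, against -0.01 over all tested genes, and all 39 were positive. In 36 members both iFTn-MR4 libraries were above both iFTn-R4 libraries, which held for 31.5% of all tested genes. With the length offset 37 rose, against 15.8% of genes, with a median of 0.42. Leaving out iFTn-MR4 replicate 1 left 6 calls, leaving out iFTn-MR4 replicate 2 left 9, leaving out iFTn-R4 replicate 1 left 13, and leaving out iFTn-R4 replicate 2 gave 38. With the offset these counts were 17, 21, 24 and 38.

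The N module, which oxidises NADH, had 8 of 10 members higher in iFTn-MR4 than in iFTn-R4 and 10 of 10 with the offset. Ndufv1 binds NADH and the flavin that takes its electrons. It had 761 and 743 CPM in iFTn-MR4, 586 and 673 in iFTn-M4, 537 and 561 in PBS, and 491 and 539 in iFTn-R4. Its iFTn-MR4 libraries were the highest, and without length correction iFTn-R4 overlapped PBS. With it iFTn-R4 was above PBS, with log2 deviations of -0.26 and -0.12 against -0.35 and -0.31. The log2 fold change over iFTn-R4 was 0.54 ± 0.09 (SE, edgeR, adjusted p = 0.00313). Ndufs1, the largest iron-sulfur subunit, lies at chr1:63143592-63176822. It had 663 and 660 CPM in iFTn-MR4, 541 and 554 in iFTn-M4, 414 and 499 in iFTn-R4, and 408 and 443 in PBS. No library of another group reached iFTn-MR4, and the log2 fold change over iFTn-R4 was 0.54 ± 0.10 (edgeR, adjusted p = 0.00447). Ndufv2, a further iron-sulfur subunit, rose by 0.37 on the log2 scale (edgeR, adjusted p = 0.0226).

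Among the accessory subunits of the N module, Ndufs6, a zinc-binding subunit needed late in assembly, lies at chr13:73319876-73328482. Its levels were 184 and 178 CPM in iFTn-MR4, 172 and 154 in iFTn-M4, 111 and 136 in iFTn-R4, and 120 and 134 in PBS. Without length correction PBS and iFTn-R4 overlapped, and both iFTn-MR4 and iFTn-M4 lay above them. With it iFTn-R4 was above PBS, with log2 deviations of -0.25 and -0.07 against -0.45 and -0.35. Ndufs6 rose over iFTn-R4 by 0.55 ± 0.11 (log2, edgeR, adjusted p = 0.0056). Ndufs4, an accessory subunit that stabilises the N module and is mutated in a form of human Leigh syndrome, had 157 and 151 CPM in iFTn-MR4 and 111 and 132 in iFTn-R4. Its groups did not overlap, but it missed the threshold without the offset (log2 fold change 0.34, edgeR adjusted p = 0.0506) and passed with it (0.40, adjusted p = 0.0248). Ndufa6, an accessory subunit of the LYR protein family, behaved the same way, with adjusted p = 0.0863 in edgeR without the offset and 0.0388 with it.

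The Q module, which hands electrons to ubiquinone, had 6 of 6 members higher in iFTn-MR4 than in iFTn-R4 in both fits. Ndufs7, which carries the terminal iron-sulfur cluster before ubiquinone, is at chr10:80249105-80256794. It had 240 and 231 CPM in iFTn-MR4, 219 and 203 in iFTn-M4, 218 and 246 in PBS, and 139 and 163 in iFTn-R4. The iFTn-R4 libraries were below all others, while in CPM without length correction iFTn-MR4 lay within the PBS range. With the correction iFTn-MR4 was above PBS, with log2 deviations of 0.33 and 0.30 against -0.12 and 0.004. The log2 fold change of Ndufs7 over iFTn-R4, 0.64 ± 0.10 (edgeR, adjusted p = 0.00212), was the largest of the 39 in the fit without the offset. Ndufs3, a core subunit of this module, had 297 and 286 CPM against 186 and 223. Ndufs8, with further iron-sulfur clusters, had 175 and 170 against 120 and 129. Both rose, by 0.51 and 0.47 on the log2 scale, and Ndufa9, the accessory subunit at the junction with the membrane arm, rose by 0.37 (edgeR, adjusted p = 0.0135, 0.00852 and 0.0265). All 7 core subunits of the N and Q modules that nuclear genes encode rose, with a median log2 fold change of 0.51.

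In the membrane arm, 7 of 9 proximal and 10 of 11 distal members rose in iFTn-MR4 over iFTn-R4. Ndufa13, also known as the cell-death regulator GRIM-19, had 274 and 241 CPM in iFTn-MR4 and 170 and 189 in iFTn-R4. Its log2 fold change was 0.52 ± 0.09 (edgeR, adjusted p = 0.0032). Ndufa8, a proximal-arm subunit, rose by 0.45 on the log2 scale (edgeR, adjusted p = 0.00495). Ndufb8, a distal subunit often used as a marker of assembled complex I, had 515 and 487 CPM against 324 and 412 and rose by 0.45 (edgeR, adjusted p = 0.0174). Ndufab1, the mitochondrial acyl carrier protein that complex I contains, had 282 and 284 against 188 and 226 and also rose by 0.45 (edgeR, adjusted p = 0.0102). Ndufb6 was the distal member that did not pass, at 0.11 (adjusted p = 0.531), with 109 and 103 CPM in iFTn-MR4 and 84.4 and 112 in iFTn-R4. Ndufc1 and Ndufa3 of the proximal arm did not pass without the offset (edgeR, adjusted p = 0.159 and 0.081) and passed with it. Of the genes that share only the symbol, Ndufa4 rose by 0.43 (edgeR, adjusted p = 0.0373), and Ndufa4l2 had 0.05 (adjusted p = 0.809) with 95% limits of -0.26 to 0.37.

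**Figure D3:**
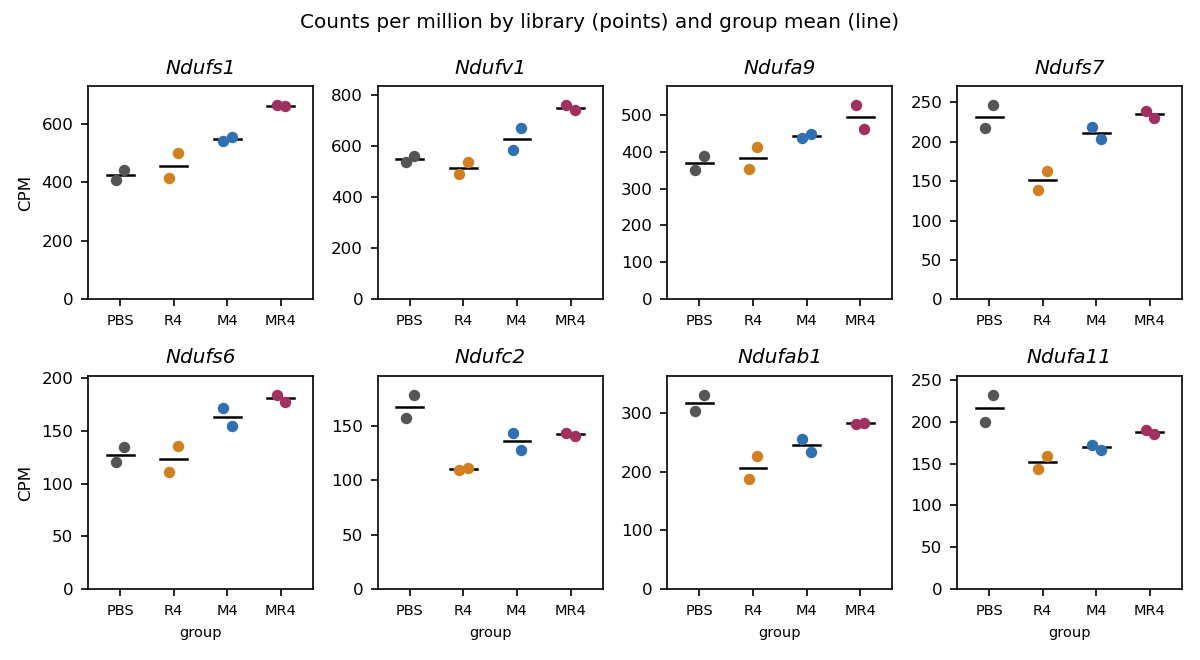
CPM of 8 members in each library (points, coloured by group) with the group mean (line), on linear axes from 0. In these CPM, without length correction, Ndufs1, Ndufv1 and Ndufa9 are highest in iFTn-MR4 and Ndufs7 is lowest in iFTn-R4. Ndufc2, Ndufab1 and Ndufa11 are highest in PBS before that correction.

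Between iFTn-R4 and iFTn-M4 the members were again lower in iFTn-R4. Of the 39, 0 rose and 3 fell in iFTn-R4, against 3.43% and 2.5% of all tested genes, with a median log2 fold change of -0.28 and all 39 negative. The 3 were Ndufs7 (-0.48), Ndufa13 (-0.39) and Ndufa1 (-0.39), the last an accessory subunit of the proximal arm, with edgeR adjusted p of 0.0245, 0.0341 and 0.0331. In 32 members both iFTn-R4 libraries lay below both iFTn-M4 libraries, which held for 25.4% of all tested genes. With the offset the same 3 fell and 0 rose, against 2.93% and 3.18% of genes, and the median was -0.22. Without iFTn-R4 replicate 2 there were 28 calls, and leaving out any other library of these groups left 0. With the offset the counts were 20 without iFTn-R4 replicate 2, 1 without its replicate 1 and 0 without either iFTn-M4 library. Between iFTn-MR4 and iFTn-M4 no member passed in the edgeR fits of all groups, with or without the offset, and 1 rose when only these groups were fitted. The background there was 0.0215% of tested genes that rose and 0.344% that fell. The median was 0.14, 5 members had an unadjusted p under 0.05 without the offset and 19 with it, and DESeq2 called 0. With the offset the background was 0.043% rising and 0.251% falling. In CPM without length correction, both iFTn-MR4 libraries were above both iFTn-M4 libraries in 26 members, against 26.6% of all tested genes. Ndufs3 had the largest difference in that pair, 0.32 with 95% limits of 0.05 to 0.59.

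The result for iFTn-MR4 against PBS depended on the length correction. Without it 10 of 39 members rose (25.6%) and 1 fell (2.56%), against 24.6% and 26.3% of all tested genes, so the share that rose was close to that of all genes. The median log2 fold change was 0.18. With it 33 rose (84.6%) and 0 fell, against 24.4% and 20.7% of genes, and the median was 0.50. In CPM, which carry no length correction, both libraries were above PBS in 23 members and below in 4. That held for 39.3% and 39.9% of genes. The 10 members that rose without the offset also rose with it, and core subunits of the N and Q modules were among them. Ndufs1 rose by 0.64 ± 0.10 without and 0.78 ± 0.10 with the offset (edgeR, adjusted p = 0.000603 and 0.000262). Ndufv1 rose by 0.45 and 0.74 and Ndufs6 by 0.51 and 0.81 (edgeR, adjusted p = 0.00283 and 0.00355 without the offset). Ndufa9 rose by 0.42 and 0.74 (edgeR, adjusted p = 0.00766 and 0.000384). Ndufa3, a small proximal-arm subunit, rose by 0.56 and 0.71, but its effective length of 60.5 bases makes its level uncertain. Ndufb4, a distal subunit, rose by 0.41 without and 0.68 with the offset, and its copy Ndufb4c by 0.48 and 0.77. Ndufb11, a distal subunit encoded on the X chromosome, rose by 0.31 and 0.66, and Ndufa1 by 0.27 and 0.56.

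Ndufc2, a membrane-arm accessory subunit, went the other way in that comparison. It had 157 and 178 CPM in PBS, 144 and 141 in iFTn-MR4, 143 and 128 in iFTn-M4, and 109 and 111 in iFTn-R4. Both PBS libraries were above all nanocage libraries. It fell in iFTn-MR4 by 0.24 on the log2 scale without the offset (edgeR, adjusted p = 0.0448) and stood at 0.11 with it (adjusted p = 0.245), a change of sign. By module, the offset took the count of risen members from 3 to 10 of 10 in the N module, 2 to 6 of 6 in the Q module, 2 to 6 of 9 in the proximal arm and 2 to 9 of 11 in the distal arm. The members that passed in neither fit were Ndufc1, Ndufab1, Ndufb6, Ndufa4l2 and Ndufa11, the last a subunit at the base of the membrane arm. Ndufa11 had -0.20 without and -0.05 with the offset. Leaving out iFTn-MR4 replicate 1 gave 3 calls without the offset and leaving out PBS replicate 1 gave 6, while with the offset leave-one-out counts were 28 to 33.

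iFTn-M4 against PBS gave a split result without the offset and rises alone with it. Without it 4 members rose (10.3%) and 3 fell (7.69%), both below the 19.8% and 21.4% of all tested genes, with a median of 0.06. Ndufa3 (0.55), Ndufs1 (0.36), Ndufs6 (0.36) and Ndufa1 (0.26) rose, and Ndufab1 (-0.37), Ndufa11 (-0.35) and Ndufc2 (-0.31) fell, with edgeR adjusted p of 0.0103 to 0.038. With the offset 24 rose (61.5%) and 0 fell, against 16.8% and 16% of genes, and the median was 0.31. These included 9 of 10 members of the N module, 3 of 6 of the Q module, 5 of 9 of the proximal arm and 6 of 11 of the distal arm. Ndufs6 led them with 0.55 (edgeR, adjusted p = 0.00103), and Ndufa9 reached 0.53, Ndufs1 0.48 and Ndufv1 0.44. In CPM without length correction, both libraries were above PBS in 13 members and below in 5, each against 37.3% of genes. Leaving out PBS replicate 1, PBS replicate 2 or iFTn-M4 replicate 1 left 3 calls without the offset and leaving out iFTn-M4 replicate 2 left 2. With the offset the counts were 8, 18, 10 and 11 in that order.

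iFTn-R4 was the nanocage group whose members had a negative median against PBS before correction. Without the offset 0 members rose and 8 fell (20.5%), against 13.9% and 15.4% of all tested genes, with a median of -0.24. The 8 were Ndufs7 (-0.62), Ndufab1 (-0.61), Ndufc2 (-0.60), Ndufa11 (-0.51), Ndufb7 (-0.41), Ndufs8 (-0.31), Ndufa13 (-0.29) and Ndufb3 (-0.28), with edgeR adjusted p of 0.00166 to 0.0456. Ndufb7 and Ndufb3 are accessory subunits of the distal arm. In 19 members both iFTn-R4 libraries lay below PBS, against 32.8% of genes. With the offset 3 fell (7.69%) and 1 rose (2.56%), against 7.49% and 6.44% of genes, so the share that fell was close to that of all genes, and the median was 0.08. Ndufa11 (-0.44), Ndufab1 (-0.29) and Ndufc2 (-0.27) fell in both fits, and Ndufa3 rose by 0.33 with the offset alone (edgeR, adjusted p = 0.0159, 0.0492, 0.0391 and 0.0278). Ndufs7 had -0.29 with the offset (edgeR, adjusted p = 0.0512), while Ndufb3 and Ndufs8 changed sign to 0.055 and 0.020.

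The libraries of iFTn-R4 and PBS decided these counts. Without the offset, 27 members fell when iFTn-R4 replicate 2 was left out, and 2 rose and 5 fell when replicate 1 was. Leaving out PBS replicate 2 left 4 calls. With the offset there were 10 calls without iFTn-R4 replicate 1, of which 8 rose, 1 call without PBS replicate 1 and 0 without PBS replicate 2. Ndufab1 had 303 and 331 CPM in PBS, 282 and 284 in iFTn-MR4, 256 and 234 in iFTn-M4, and 188 and 226 in iFTn-R4. In CPM none of these groups overlapped, with PBS at the top and iFTn-R4 at the bottom. With length correction iFTn-MR4 was above PBS, with Ndufab1 log2 deviations of 0.21 and 0.26 against 0.02 and 0.09. Ndufa11 had 200 and 232 CPM in PBS, 190 and 185 in iFTn-MR4, 172 and 166 in iFTn-M4, and 144 and 159 in iFTn-R4, in the same order. At 2349 bases it is one of the 2 longest members, and the offset moved it little, from -0.51 to -0.44 in iFTn-R4. With length correction its PBS and iFTn-MR4 libraries overlapped, with log2 deviations of 0.07 and 0.28 against 0.15 and 0.12.

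**Figure D4:**
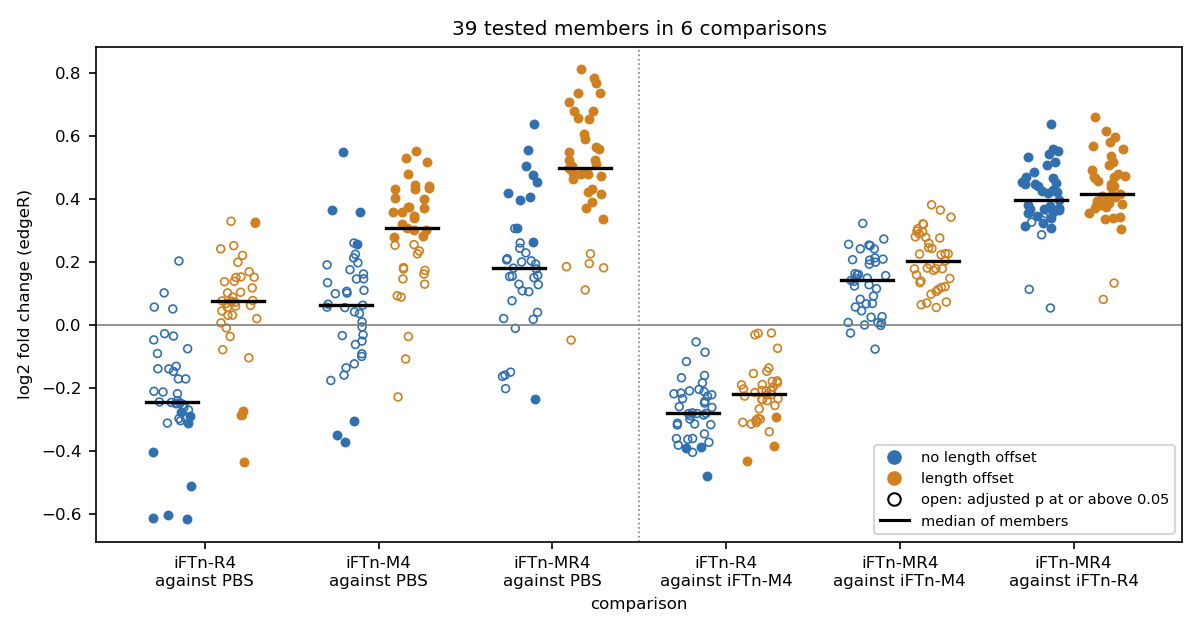
Log2 fold change (edgeR) of each of the 39 tested members (points) in the 6 comparisons, without (blue) and with (orange) the length offset. Filled points passed an adjusted p under 0.05 and bars mark medians: the offset lifts the median from -0.24 to 0.08, 0.06 to 0.31 and 0.18 to 0.50 against PBS, and barely moves it for iFTn-MR4 against iFTn-R4.

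The members kept a narrow ratio to the other respiratory chain complexes. As a share of the summed CPM of 42 genes listed for complexes II to V, the members were at 32.3% to 34.3% in every library. The members' own sum, which includes Ndufa4, ranged from 6914 to 10551. Of the 42, 25 rose (59.5%, against 12.6% of all tested genes) and 0 fell in iFTn-MR4 over iFTn-R4 (median 0.35), among them Cox6a2, the heart and muscle form of a cytochrome c oxidase subunit (0.72), and Sdha, the flavoprotein of succinate dehydrogenase (0.54). Against PBS, iFTn-MR4 had 12 that rose (28.6%) and 2 that fell (4.76%) without the offset, where the share that rose was near the 24.6% of all tested genes, and 36 (85.7%, against 24.4%) and 2 with it. Cox6a1, the isoform of non-muscle tissue, fell there by 1.12 on the log2 scale without and 0.79 with the offset (edgeR, adjusted p = 1.08e-05 and 0.000145). In iFTn-M4 against PBS 5 rose (11.9%) and 4 fell (9.52%), below the 19.8% and 21.4% of all genes, and with the offset 27 rose (64.3%, against 16.8%) and 2 fell. In iFTn-R4 against PBS 1 rose and 11 fell (26.2%, against 15.4%), and with the offset 3 (7.14%) and 2 (4.76%), near or under the 6.44% and 7.49% of all genes. Between iFTn-R4 and iFTn-M4 5 fell (11.9%, against 2.5% of all tested genes). Between iFTn-MR4 and iFTn-M4 0 passed, with 6 at an unadjusted p under 0.05 and a median of 0.07. Of all tested genes 0.0215% rose and 0.344% fell there.

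Of the 15 assembly factors, which build complex I without remaining in it, 6 rose (40%, against 12.6% of all tested genes) and 0 fell in iFTn-MR4 over iFTn-R4 (median 0.29), led by Foxred1 (0.45) and Ecsit (0.47), at edgeR adjusted p of 0.00294 and 0.00379. Against PBS without the offset, 6 fell in iFTn-R4 (40%, against 15.4%) and 4 in iFTn-M4 (26.7%, against 21.4%). In iFTn-MR4 2 rose and 2 fell, 13.3% each and below the 24.6% and 26.3% of all genes. Ndufaf8 (-0.61) and Timmdc1 (-0.40) were among those that fell in iFTn-R4, and had -0.33 and -0.22 with the offset (edgeR, adjusted p = 0.0803 and 0.136). With the offset 0 passed in iFTn-R4, with 5 at an unadjusted p under 0.05, and 5 rose in iFTn-MR4 (33.3%, against 24.4%). In iFTn-M4 with the offset 2 rose and 1 fell, below the 16.8% and 16% of all tested genes. None passed between iFTn-R4 and iFTn-M4 or between iFTn-MR4 and iFTn-M4 without the offset in edgeR, with 5 and 2 at an unadjusted p under 0.05.

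Of 15 regulators of mitochondrial genes, 6 rose (40%, against 12.6% of all tested genes) and 0 fell in iFTn-MR4 over iFTn-R4. They included Ppara, the fatty-acid receptor of oxidative metabolism (0.89, edgeR, adjusted p = 0.000432), and the oestrogen-related receptors Esrrg (0.67), Esrrb (0.44) and Esrra (0.41). Ppargc1a, the coactivator PGC-1α, differed by 0.07 there (adjusted p = 0.65) but rose over PBS in all nanocage groups, by 0.79 in iFTn-M4, 0.94 in iFTn-R4 and 1.01 in iFTn-MR4 without the offset and by 0.51, 0.67 and 0.72 with it. Over PBS without the offset, 6 regulators rose (40%, against 19.8% of all genes) and 1 fell in iFTn-M4, and 8 rose (53.3%, against 24.6%) and 0 fell in iFTn-MR4. In iFTn-R4 3 rose (20%) and 2 fell (13.3%), near the 13.9% and 15.4% of all genes. With the offset 4 rose and 0 fell in iFTn-M4, 2 rose and 1 fell in iFTn-R4, and 5 rose and 0 fell in iFTn-MR4, where 26.7%, 13.3% and 33.3% of the list rose against 16.8%, 6.44% and 24.4% of all genes. The list's median log2 fold change over PBS went from 0.14 to -0.02 in iFTn-M4, from 0.18 to 0.01 in iFTn-R4 and from 0.23 to 0.17 in iFTn-MR4 with the offset. Between iFTn-R4 and iFTn-M4 Ppara alone passed, at -0.52, where 3.43% of all tested genes rose and 2.5% fell. Between iFTn-MR4 and iFTn-M4 0 passed, with 6 at an unadjusted p under 0.05.

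Markers of heart muscle cells were also highest in iFTn-MR4. The 12 cardiomyocyte markers summed to 82574 and 81195 CPM in iFTn-MR4, 70280 and 73277 in iFTn-M4, 58187 and 59560 in PBS, and 46728 and 46908 in iFTn-R4, with no marker at 0. Of the 12, 10 rose in iFTn-MR4 over iFTn-R4 (median 0.71), and 7 fell in iFTn-R4 against iFTn-M4, above the 12.6% and 2.5% of all tested genes. Against PBS without the offset, 10 rose and 1 fell in iFTn-MR4, against 24.6% and 26.3% of all tested genes. In iFTn-M4 6 rose and 1 fell, against 19.8% and 21.4%. In iFTn-R4 2 rose and 5 fell, against 13.9% and 15.4%, so the share that rose was near that of all genes. With the offset these counts were 9 and 0, 8 and 1, and 1 and 2. The shares of all genes were then 24.4% and 20.7%, 16.8% and 16%, and 6.44% and 7.49%. The members' sum as a percentage of this marker sum was 12.8 and 12.4 in iFTn-MR4, 13.3 and 12.4 in iFTn-M4, 14.3 and 15.4 in PBS, and 14.8 and 17.7 in iFTn-R4. On that scale, which carries no length correction, iFTn-MR4 and iFTn-M4 were below PBS and iFTn-R4. The length trend therefore bears on its comparison with PBS. The part of cell composition in the complex I differences was not tested.

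**Figure D5:**
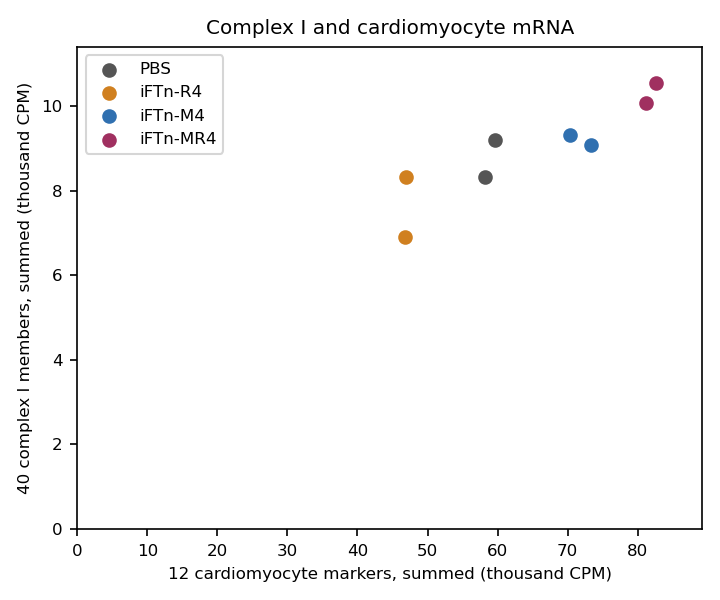
Summed CPM of the 40 members (y axis) against summed CPM of 12 cardiomyocyte markers (x axis), each divided by 1000, 1 point per library, both axes from 0. Both sums, which carry no length correction, are lowest in iFTn-R4 and highest in iFTn-MR4, and the marker sum spans a wider relative range than the members' sum.

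Other cell types moved less uniformly. In iFTn-MR4 over iFTn-R4 the background was 12.6% of all tested genes that rose and 14.6% that fell. In iFTn-MR4 over iFTn-R4, 4 of 5 neutrophil markers fell, with the list at 37.3 and 42.8 summed CPM in iFTn-MR4, 65.8 and 35 in iFTn-M4, 135 and 98.8 in iFTn-R4, and 145 and 127 in PBS, and none at 0. Of 8 fibroblast markers 2 rose in that comparison and 0 fell. Over PBS, 7, 6 and 6 rose in iFTn-M4, iFTn-R4 and iFTn-MR4, against 19.8%, 13.9% and 24.6% of all tested genes. With the offset 5, 4 and 4 rose, against 16.8%, 6.44% and 24.4%. In the same comparison of iFTn-MR4 with iFTn-R4, 1 of 6 endothelial markers rose and 1 fell. There 2 of 4 smooth muscle markers fell and 1 of 7 macrophage markers fell. The endothelial and macrophage shares were near those of all tested genes. None of 5 red cell markers passed in edgeR, with 3 at an unadjusted p under 0.05. The 2 of 4 T cell markers tested did not pass either, with 0 at an unadjusted p under 0.05 and the list at 0.68 to 2.45 summed CPM. Their part in the complex I differences was not tested.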

How the data were processed

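RNA from hearts was enriched for mRNA with oligo-dT and sequenced as DNA nanoballs, per the labels' protocols. The tools were HISAT2 2.1.0, Bowtie2 2.2.5 and RSEM 1.2.8 with the GRCm38.p6 genome, per the submitters' processing notes. The authors deposited RSEM expected counts for each gene, which can hold fractions for reads shared between genes. The authors also deposited FPKM values, which scale fragments by transcript length and depth. TPM values, scaled to a fixed total, were deposited for the same genes. Whether counting used strand is not given in the sources used here.

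The PBS table lists 17051 genes and the table of the nanocage groups 17788. They were joined on gene ID, and 16547 genes had values in all 8 libraries. Expected counts were rounded and fitted in edgeR 4.0.16 (R 4.3.3) with filterByExpr, TMM scaling and all groups in 1 quasi-likelihood model, which shares 1 estimate of the spread. P-values are 2-sided and adjusted by Benjamini-Hochberg over 13953 genes for each of 6 comparisons. Dividing each log2 fold change by the root of its F statistic gave the SE, and intervals are at 95%. Effective length was counts over FPKM, for genes with at least 10 counts. For the length offset, each library's log2 deviation from the mean library was smoothed against log2 length (natural spline, 4 degrees of freedom), using genes that averaged 50 counts or more. The common biological coefficient of variation was 8.47%. Totals of 13618128 to 15729311 put a gene without counts under 0.188 to 0.227 CPM, from 3 counts, which covers counting error only.

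The members, modules, other lists and alternatives were chosen with earlier results of these data known. Named are the members past the threshold (the 6 of lowest adjusted p where more than 8 passed in a direction), a set of subunits always given, and up to 4 genes of each other list. Alternatives were DESeq2 1.42.0, library size alone, no filter, only the compared groups, limma 3.58.1 on log2 TPM with a pseudocount of 1 or 0.1, a replicate block, and leaving out each library. The edgeR steps were tested on simulated data. Promoters come from RefSeq on GRCm38.p6, which had 34 of 40 members. The values of 1 member are not reported here on their own, though it is in the counts and sums.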

Additional observations from a re-analysis of the deposited data

How the results depend on the processing

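Each run of 6 counts of called members below starts with iFTn-M4, iFTn-R4 and iFTn-MR4 against PBS. It goes on with iFTn-MR4 against iFTn-M4, then against iFTn-R4, and ends with iFTn-R4 against iFTn-M4. The counts were 7, 8, 11, 0, 33 and 3 in edgeR without the length offset. The offset gave 24, 4, 33, 0, 37 and 3, and it changed the sign of Ndufb3 (0.055) and Ndufs8 (0.020) in iFTn-R4 and of Ndufc2 (0.11) in iFTn-MR4, each against PBS. A spline with 8 degrees of freedom gave 2 for iFTn-R4 against PBS and otherwise counts within 1.5 times. DESeq2 gave 6, 8, 11, 0, 34 and 6. Library size alone gave 8, 5, 12, 0, 23 and 3, and no filter 7, 8, 11, 0, 34 and 3. Fitting only the compared groups gave 8, 4, 20, 1, 18 and 0. Limma on log2(TPM + 1) gave 12, 6, 22, 0, 27 and 1, the same counts with a pseudocount of 0.1, and 12, 6, 22, 0, 19 and 0 without the filter. The cause of these differences was not tested. The fit of only the compared groups also used fewer libraries.

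Replicate numbers are shared by the groups but do not pair the libraries in the labels. Each gene's difference of replicate 1 minus replicate 2 had correlations of -0.03 to 0.15 between groups. A replicate block gave 7, 10, 13, 0, 34 and 5. The replicate block with the length offset gave 24, 5, 33, 0, 37 and 5, and left Ndufb3 at 0.055, Ndufs8 at 0.021 and Ndufc2 at 0.11 in the comparisons named above.

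Leaving out each library gave 2 to 3, 4 to 27, 3 to 9, 0, 6 to 38 and 0 to 28 calls in the same order without the offset. With the offset it gave 8 to 18, 0 to 10, 28 to 33, 0, 17 to 38 and 0 to 20. Where this leaves a group with 1 library, that library is assumed to vary like the others. With 2 libraries in a group, levels of the lowest members and differences under about the spread between replicates are the least firm.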
